A study of Mus musculus with 4 samples.

Results

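A set of 8 genes of the colony-stimulating factor (CSF) system was followed in macrophages grown from mouse bone marrow. It held the ligand gene Csf1 and the receptor kinase genes Csf1r, Kit and Flt3. The others were Csf2ra and Csf2rb for GM-CSF receptor chains, Csf2rb2 for a chain that serves IL-3, and Csf3r for the G-CSF receptor. The genes were chosen by symbol, and all 8 were present among the 23259 symbols with a value. RNA came from cells of C57BL/6 mice aged 7 weeks after 24 h with IL-4, the cytokine of alternative activation, with 2 libraries labelled Sema6D-/- (null for the transmembrane semaphorin Sema6D) and 2 labelled wild type. All 4 libraries thus share the strain, the age and the IL-4. The sources used here do not give the growth factor that raised the macrophages, the IL-4 concentration or the design of the mutant allele.

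CSF1, also called M-CSF, binds the receptor kinase CSF1R and is the main survival, growth and differentiation signal of macrophages. Kit and Flt3 encode related kinases of the same receptor class, which serve blood stem and progenitor cells, mast cells and dendritic cell precursors. GM-CSF, IL-3 and IL-5 bind their own alpha chains, which pair with a shared beta chain to signal through JAK2 and STAT5. The mouse has a pair of beta chain genes, Csf2rb for the shared chain and Csf2rb2 for a chain that serves IL-3.

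The sample titles begin with W under the label Sema6D-/- and with K under the label wild type, so every direction is that of the libraries as labelled. The targeted gene did not separate the labels: Sema6d was at 0.106 and 0.315 FPKM in the libraries labelled Sema6D-/-, against 0.166 and 0.389 FPKM in those labelled wild type (adjusted p = 0.788, limma without a filter). FPKM scale the fragments of a gene by its transcript length and by the depth of the library. The values summed to 552107 to 563890 FPKM per library under the label Sema6D-/- and to 527755 to 538679 FPKM under wild type. The estimated depth was about 8300000 and 8600000 fragments, against about 9100000 and 9300000. At that depth Sema6d equals at most about 6 and 18 fragments under the label Sema6D-/-, against 10 and 23 under wild type. With so few fragments the test on Sema6d cannot decide whether the gene differed between the labels. Macrophage markers were present in all libraries, for example the surface marker Emr1 (now Adgre1) at 481 and 459 FPKM in the libraries labelled Sema6D-/-, against 339 and 326 FPKM in those labelled wild type. Of the 8 macrophage markers 1 was higher, Emr1, while 3 were lower (Itgam, Cd14 and Lyz2). The shares among all tested genes were 4.8% and 4.91%. The median difference of the macrophage list was -0.24. That list includes Csf1r, a gene of the set followed here, so it is not independent of the set. Of 11 neutrophil markers found, 10 were tested and 6 were higher under the label Sema6D-/-, where 4.8% of all tested genes were higher. The list summed to 640 to 780 FPKM under that label, against 220 to 229 FPKM under wild type. The genes S100a8 and S100a9 made up most of that sum, and no marker found was at 0 in all libraries. The part of these markers in the results below was not tested.

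Csf2rb and Csf2rb2 are close copies, so the parts of their sequence that separate them, and those that do not, are shown first. In GENCODE M21 their longest coding transcripts have coding sequences of 2688 and 2634 bases, which were identical at 95.2% of 2628 aligned positions. The gap-free stretch of 120 bases with the most differences is given here from each gene, in coding positions 309 to 428 of Csf2rb and 312 to 431 of Csf2rb2, with the 22 differing bases in capitals.
Csf2rb: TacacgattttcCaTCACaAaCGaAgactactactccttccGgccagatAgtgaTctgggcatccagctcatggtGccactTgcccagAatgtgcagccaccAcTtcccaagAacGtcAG
Csf2rb2: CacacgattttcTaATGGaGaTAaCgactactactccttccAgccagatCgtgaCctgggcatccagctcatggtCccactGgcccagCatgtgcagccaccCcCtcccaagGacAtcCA
The longest identical run was 242 bases, at coding positions 2083 to 2324 of both genes, and a fragment that lies wholly inside it cannot be assigned to either gene.
Csf2rb and Csf2rb2: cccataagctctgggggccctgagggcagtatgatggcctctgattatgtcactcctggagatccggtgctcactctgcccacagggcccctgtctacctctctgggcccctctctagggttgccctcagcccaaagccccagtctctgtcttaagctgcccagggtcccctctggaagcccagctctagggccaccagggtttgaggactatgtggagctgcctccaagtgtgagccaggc
Over whole transcripts, 10.7% of all stretches of 75 bases of Csf2rb were also in Csf2rb2, and 11.1% of those of Csf2rb2 were also in Csf2rb. At 100 bases the shares were 7.0% and 7.2%. Most stretches of either length therefore differed between the copies, but the sources used here give neither the read length nor the treatment of shared reads, so the levels of both genes carry that uncertainty.

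Under the label Sema6D-/-, 3 members were lower, namely Csf1, Csf2rb and Csf3r. Csf1r, Csf2ra and Csf2rb2 did not pass the test, and Kit and Flt3 were close to 0. Counted over the 6 members with a mean of at least 1 FPKM, 3 were lower at an adjusted p under 0.05, where 4.91% of 10115 tested genes were lower. The members were chosen with earlier results of these data known, so this count is a description only. By limma 0 members were higher, also at an unadjusted p under 0.05, where 4.8% of tested genes were higher at the adjusted threshold. The libraries of the labels did not overlap for any of the 6, as for 56.2% of all tested genes.

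**Figure D1:**
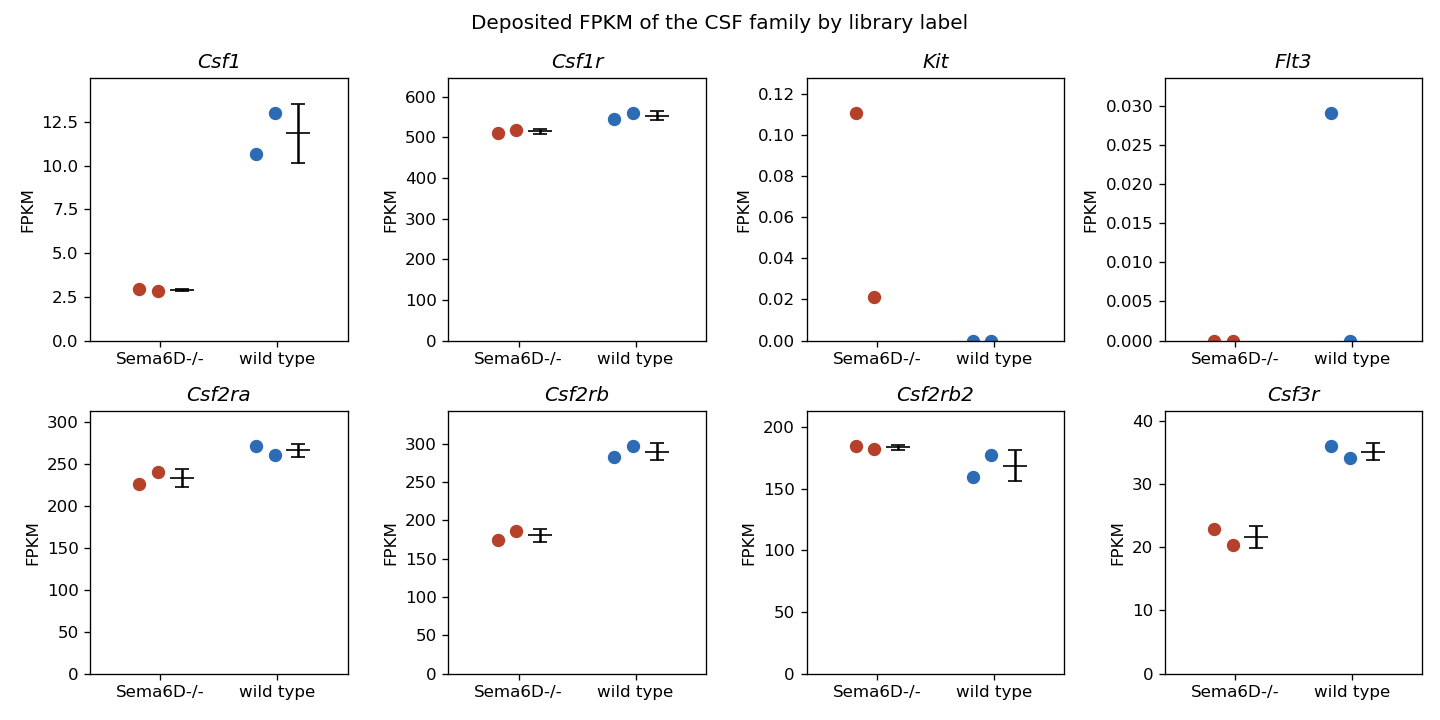
FPKM of each member in the 2 libraries labelled Sema6D-/- (red) and the 2 labelled wild type (blue), each panel with its own linear axis from 0. Black marks show the mean and SD of each label, and are left out for Kit and Flt3, which have libraries listed at 0. Csf1 sits near 3 FPKM under Sema6D-/- and above 10 FPKM under wild type.

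Csf1, the ligand gene, had the largest difference of the 6 tested members. It was at 2.94 and 2.85 FPKM in the libraries labelled Sema6D-/-, against 10.7 and 13.04 FPKM in those labelled wild type. The pair labelled Sema6D-/- lay close together and far under both wild type values. Mean FPKM was 2.90 ± 0.062 against 11.9 ± 1.7 (SD, n = 2 each), 4.09-fold lower under the label Sema6D-/-. The difference in log2(FPKM + 1), the scale of all tests here, was -1.72 ± 0.11 (SE, adjusted p = 0.00208, limma). By size it ranked 97 and by p 56 among 10115 genes. Csf1 stood above 14.3% and 13.6% of tested genes in the libraries labelled Sema6D-/- and above 43.8% and 50.5% in those labelled wild type. In fragments this came to at most about 102 and 103, against 406 and 505. Leaving out 1 library gave -1.85 to -1.58, and a pseudocount of 5 in place of 1 gave -1.09. Annotation places Csf1 on chromosome 3 from 107741048 to 107760469 (mm10).

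Other ligands of these receptors were low or listed at 0. Of 8 listed ligand genes, 3 passed the filter and 1, Csf1 itself, was lower, where 4.91% of all tested genes were lower. By limma 0 were higher, also at an unadjusted p under 0.05. The list's median difference was -0.21, against 0.003 over all tested genes. Kitl, which encodes the Kit ligand, was at 5.33 and 5.26 FPKM in the libraries labelled Sema6D-/-, against 5.20 and 4.71 FPKM in those labelled wild type (adjusted p = 0.637, limma). Flt3l, the Flt3 ligand gene, was at 3.68 and 4.65 FPKM, against 4.87 and 4.99 FPKM (adjusted p = 0.362). Il34, the other CSF1R ligand gene, was listed at 0 in both libraries labelled Sema6D-/- and at 0 and 0.065 FPKM under wild type. Csf2, Csf3, Il3 and Il5, the genes for GM-CSF, G-CSF, IL-3 and IL-5, were listed at 0 in all 4 libraries.

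Csf1r, the receptor of CSF1, had the highest level of the 8 in every library. It was at 511 and 519 FPKM in the libraries labelled Sema6D-/-, against 545 and 561 FPKM in those labelled wild type. Both values under the label Sema6D-/- were lower, by a small step. The difference was -0.10 ± 0.043 (SE) with a 95% interval of -0.21 to 0.004 and did not pass (adjusted p = 0.213, limma). The ratio of Csf1r to Csf1 FPKM was 174 and 182 under the label Sema6D-/-, against 51.2 and 43.0 under wild type, and followed the level of Csf1. An exact permutation test on that ratio cannot go below p = 0.333 with 2 libraries each, the value it gave (two-sided).

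Kit and Flt3, the kinases of progenitors, were at the limit of detection. Kit was at 0.111 and 0.0214 FPKM in the libraries labelled Sema6D-/- and listed at 0 in both labelled wild type (adjusted p = 0.463, limma without a filter). Flt3 was listed at 0 in both libraries labelled Sema6D-/- and at 0.0292 and 0 FPKM under wild type (adjusted p = 0.799). At the estimated depth these equal at most about 5 and 1 fragments for Kit and 1 for Flt3, so no difference was detectable at this depth. Pdgfra and Pdgfrb, the platelet-derived growth factor receptor genes of the same class, were below 0.5 FPKM in every library too.

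The genes Csf2ra, Csf2rb and Csf2rb2 were among the abundant transcripts and did not move alike. Csf2ra, the ligand-binding alpha chain gene, was at 226 and 241 FPKM in the libraries labelled Sema6D-/-, against 272 and 261 FPKM in those labelled wild type. Its difference of -0.19 ± 0.052 (SE), with a 95% interval of -0.32 to -0.06 that is not adjusted for the number of genes, did not pass (adjusted p = 0.088, limma). It passed after quantile normalization only, at -0.24 (adjusted p = 0.0487).

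Csf2rb, the shared beta chain gene, was lower under the label Sema6D-/-. It was at 174 and 186 FPKM in the libraries labelled Sema6D-/-, against 282 and 297 FPKM in those labelled wild type. The labels were well apart, with a gap several times the step between libraries of a label. The mean was 180.2 ± 8.1 against 289.7 ± 10.9 FPKM (SD, n = 2 each), 1.61-fold lower, with a difference of -0.68 ± 0.054 (SE, adjusted p = 0.00327, limma). With 1 library left out it was -0.73 to -0.64.

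Csf2rb2, the copy next to it, did not follow. It was at 185 and 182 FPKM in the libraries labelled Sema6D-/-, against 159.8 and 177 FPKM in those labelled wild type. Its difference was 0.12 ± 0.061 (SE) with a 95% interval of -0.03 to 0.28 and did not pass (adjusted p = 0.289, limma). The order of the copies therefore changed: Csf2rb2 was level with Csf2rb under the label Sema6D-/-, where their libraries overlap, and under it in both libraries labelled wild type. The ratio of Csf2rb2 to Csf2rb FPKM was 1.06 and 0.978 in the libraries labelled Sema6D-/-, against 0.567 and 0.596 in those labelled wild type. The ratios of the labels did not overlap, and the exact permutation test (two-sided) gave p = 0.333, the smallest it can give with 2 libraries each.

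The sum of the copies was tested as 1 feature, a choice made after the data were seen. How the sum depends on the treatment of shared fragments was not tested. The sum contains Csf2rb, which was lower itself, so it is not a separate result. The sum was 359 and 368 FPKM in the libraries labelled Sema6D-/-, against 442 and 475 FPKM in those labelled wild type. The sum was lower by 0.33 ± 0.052 (SE) in log2(FPKM + 1) (log2 difference -0.33, adjusted p = 0.0207, limma). The ratio of Csf2ra to this sum was 0.629 and 0.656 under the label Sema6D-/-, against 0.616 and 0.550 under wild type. The sum also includes Csf2rb2, the gene of the chain that serves IL-3.

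**Figure D2:**
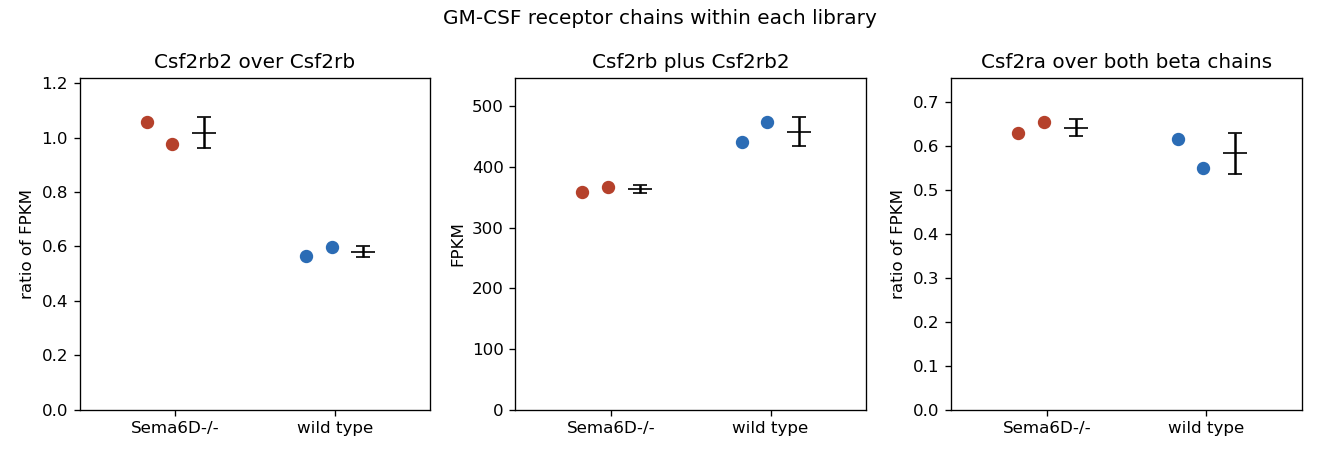
Ratio of Csf2rb2 to Csf2rb FPKM, sum of both in FPKM, and ratio of Csf2ra to that sum, for each library labelled Sema6D-/- (red) and wild type (blue), with the mean and SD in black. The first ratio is close to 1 under Sema6D-/- and below 0.6 under wild type, while the sum is lower under Sema6D-/-.

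Csf3r, which encodes the single-chain receptor of the granulocyte factor G-CSF, was at 22.8 and 20.4 FPKM in the libraries labelled Sema6D-/-, against 36.1 and 34.2 FPKM in those labelled wild type. All of its values lay between those of the GM-CSF receptor chains and Csf1. The difference was -0.68 ± 0.073 (SE, adjusted p = 0.00756, limma), 1.63-fold lower in mean FPKM. With 1 library left out it was -0.76 to -0.60, with a highest adjusted p of 0.0496. Neutrophils are known for a high level of this receptor. S100a8, a calcium-binding protein gene of neutrophils, was at 295 and 232 FPKM under the label Sema6D-/-, against 72.2 and 79.1 FPKM under wild type. The part of neutrophils in the Csf3r difference was not tested. In bulk RNA, fewer cells of a type and less RNA per cell cannot be told apart.

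**Figure D3:**
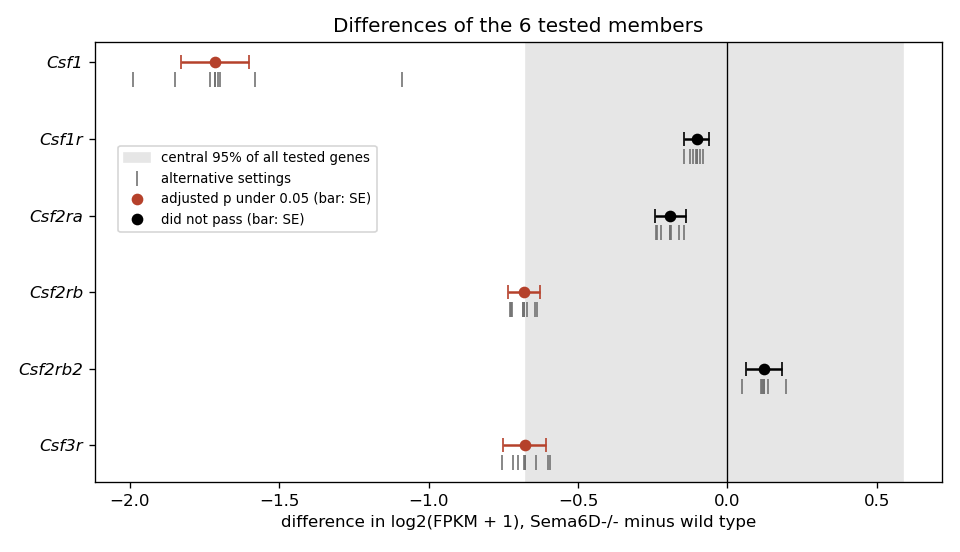
Difference in log2(FPKM + 1), Sema6D-/- minus wild type, of the 6 tested members, with SE bars; red points passed at an adjusted p under 0.05. Grey ticks are the values under each of 13 alternative settings, and the shaded band holds the central 95% of all tested genes (-0.67 to 0.59). Csf1 lies far outside the band, and Csf2rb and Csf3r lie at its lower edge.

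Ranked by level, the order in the libraries labelled Sema6D-/- was Csf1r, Csf2ra, the beta chain genes together, Csf3r and Csf1. In those labelled wild type it was Csf1r, Csf2rb, Csf2ra, Csf2rb2, Csf3r and Csf1, and no neighbours in that order overlapped. Csf1r stood above 98.9% of tested genes in both libraries labelled Sema6D-/- and above 99.0% and 99.1% in those labelled wild type.

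Csf1 and Csf3r lie on different chromosomes, and their start regions are shown because both genes were lower. The sequences are from RefSeq (GRCm38.p6) and run from 250 bases before to 50 after the start used there. The windows of 6 of the 8 members were read. Those of Csf1r and of Csf2rb, which was also lower, were not. Capitals mark matches, on either strand, to 4 motifs: GGG and TTTCC parted by any 2 bases (NF-kappaB type), GAGGAAG (PU.1 type), TTCNNNGAA (STAT type) and GAAA repeated after any 2 bases (interferon response type). Csf1 is at chr3:107760420-107760719 on the minus strand and Csf3r at chr4:126024409-126024708 on the plus strand.
Csf1: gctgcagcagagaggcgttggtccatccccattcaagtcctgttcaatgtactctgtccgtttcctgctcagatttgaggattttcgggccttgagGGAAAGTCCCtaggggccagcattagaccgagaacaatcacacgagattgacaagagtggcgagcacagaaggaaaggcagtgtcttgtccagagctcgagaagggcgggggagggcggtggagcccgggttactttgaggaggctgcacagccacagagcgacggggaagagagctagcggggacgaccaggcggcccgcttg
Csf3r: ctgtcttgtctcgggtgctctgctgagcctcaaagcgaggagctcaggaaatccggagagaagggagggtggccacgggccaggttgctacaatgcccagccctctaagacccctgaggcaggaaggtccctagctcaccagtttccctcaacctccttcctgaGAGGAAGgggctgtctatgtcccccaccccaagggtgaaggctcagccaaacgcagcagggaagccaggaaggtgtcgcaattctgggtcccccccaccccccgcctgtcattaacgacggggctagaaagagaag
The Csf1 window held 1 match to the NF-kappaB type letters, as did 1.63% of 32851 promoters, and the Csf3r window held 1 to the PU.1 type letters, as did 13.6%. The windows of Csf2ra and Csf2rb2, which did not pass the test, held 2 PU.1 type matches each, and that of Kit held 1. That of Csf2rb2 also held 1 STAT type match, a type found in 8.3% of promoters. None of the windows read, which include those of Kit and Flt3, held the interferon response letters, found in 3.44% of promoters. The Csf3r window surrounds a start inside the annotated gene, which begins upstream at 126023441, so the region before that outer start was not read. A match describes letters only.

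The genes beside the members were read for differences that extended along the chromosome. Eps8l3 beside Csf1, Grik3 beside Csf3r, Tex33 beside Csf2rb and Urad beside Flt3 were not tested, so those sides were not covered. In mm10 Csf2rb2 lies on chromosome 15 from 78282507 to 78305721 and Csf2rb from 78325800 to 78351001, and the order there is Ncf4, Csf2rb2, Csf2rb. Ncf4, a subunit gene of the phagocyte NADPH oxidase, lies 19924 bases from Csf2rb2 and was at 183 and 181 FPKM in the libraries labelled Sema6D-/-, against 348 and 352 FPKM in those labelled wild type. It was lower by 1.92-fold in mean FPKM (log2 difference -0.94 ± 0.041 (SE), adjusted p = 6.97e-04, limma). Csf2rb2, which did not pass, thus sits between a pair of genes that were lower. Ahcyl1 beside Csf1 was at 60.5 and 61.6 FPKM against 68.4 and 69.1 FPKM (adjusted p = 0.0824). Mrps15, which starts 1952 bases beyond Csf3r, was at 50.6 and 54.7 FPKM under the label Sema6D-/-, against 54.6 and 45.4 FPKM under wild type (adjusted p = 0.672), and Hmgxb3, 137 bases from Csf1r, did not pass either (adjusted p = 0.677). Csf3r lies on chromosome 4 from 126023441 to 126044975, Csf2ra on chromosome 19 from 61217191 to 61228461, Csf1r on chromosome 18 from 61105572 to 61131139, and Kit and Flt3 on chromosome 5 from 75574987 to 75656722 and from 147330741 to 147400489.

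**Figure D4:**
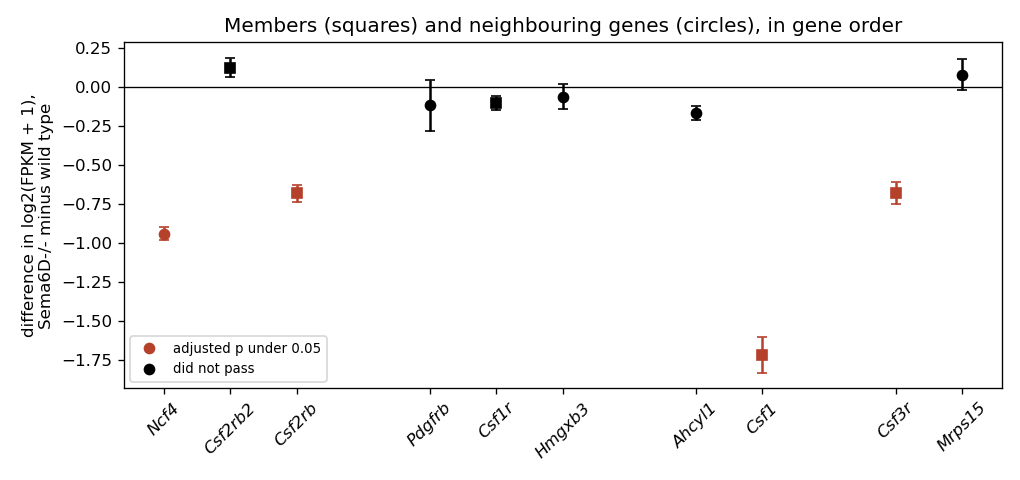
Difference in log2(FPKM + 1), Sema6D-/- minus wild type, with SE bars, of members (squares) and the annotated genes beside them (circles), in gene order within each cluster. Ncf4 and Csf2rb are lower and Csf2rb2 between them is not, while Ahcyl1 beside Csf1 and Mrps15 beside Csf3r did not pass. Pdgfrb, with a mean below 1 FPKM, is from the fit without a filter.

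The genes most like each tested member were found by the Euclidean distance of log2(FPKM + 1) over the 4 libraries, a description of level and pattern. Nearest to Csf2rb was Cybb, which encodes the catalytic subunit of the phagocyte NADPH oxidase, at a distance of 0.151. Cybb was at 162 and 174 FPKM in the libraries labelled Sema6D-/-, against 279 and 290 FPKM in those labelled wild type (adjusted p = 0.00246, limma). Psmb8, an immunoproteasome subunit gene (0.320), and Itgam, an integrin chain gene of myeloid cells (0.359), followed, and both lost their calls when either library labelled Sema6D-/- was left out (adjusted p up to 0.0949 and 0.0981). Nearest to Csf1 were X99384, Marcksl1 and Tmem178 at 0.566 to 0.591, and nearest to Csf3r were Ccdc23, the growth factor gene Pdgfb and the cytoskeletal linker gene Macf1 at 0.247 to 0.281. Marcksl1 and Ccdc23 lost their calls without Sema6D-/- replicate 1 (adjusted p = 0.0667 and 0.0558), Pdgfb without either library labelled Sema6D-/- (0.147 at most), and Macf1 in each fit that left out 1 library (0.110 at most). With a pseudocount of 5 the differences of X99384, Marcksl1 and Tmem178 were -0.82, -1.20 and -0.91, against -1.26, -1.86 and -1.37. Csf1r was closest to Anpep, Npc2 and Cotl1 at 0.0883 to 0.124, Csf2ra to Tkt, Plk2 and Cox5a at 0.111 to 0.158, and Csf2rb2 to Daglb, Serinc1 and Dock2 at 0.0511 to 0.108.

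Downstream of CSF1R, 2 of 30 signalling genes were higher and 4 lower, with a median difference of -0.06 against 0.003 over all genes. At the adjusted threshold 9.72% of all tested genes differed. Src and Fgr, genes of SRC-family kinases, were both lower. Src was at 5.77 and 5.74 FPKM in the libraries labelled Sema6D-/-, against 14.5 and 13.5 FPKM in those labelled wild type (log2 difference -1.15 ± 0.074 (SE), adjusted p = 0.00203, limma). Fgr was at 3.16 and 3.15 FPKM, against 8.18 and 8.53 FPKM (adjusted p = 0.00275). Their relatives Lyn and Fyn did not pass, with differences of 0.14 and -0.10. Dok2, an adaptor gene known to restrain receptor kinase signalling, was higher, at 124 and 127 FPKM in the libraries labelled Sema6D-/-, against 49.5 and 47.0 FPKM in those labelled wild type (log2 difference 1.36 ± 0.049 (SE), adjusted p = 3.36e-04). Src, Fgr and Dok2 passed in all 13 alternatives, and with a pseudocount of 5 the difference of Fgr was -0.71, against -1.17.

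Smaller differences in the same list were less stable. Rac2, a GTPase gene of blood cells, was at 117 and 111 FPKM in the libraries labelled Sema6D-/-, against 165 and 152 FPKM in those labelled wild type (adjusted p = 0.0109, limma). It lost its call without Sema6D-/- replicate 1 (0.0817) or 2 (0.0875). Tyrobp, the gene of the adaptor DAP12, was higher (3417 and 3334 FPKM against 2758 and 2884 FPKM), and Ptpn6, the gene of the phosphatase SHP-1, was lower (134 and 128 FPKM against 163 and 151 FPKM). Neither kept its call when any 1 library was left out (adjusted p up to 0.275 and 0.232), and after quantile normalization the difference of Tyrobp was 0.15, against 0.26. Inpp5d, the gene of the lipid phosphatase SHIP1, had a difference of 0.004 (adjusted p = 0.971). The neutrophil markers given above were higher under the same label.

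Of 10 partner and JAK-STAT5 genes of the beta receptors, 9 were tested and 1 was lower, Jak2, the kinase that the beta chain binds, a share near the 9.72% of all tested genes that differed. It was at 23.5 and 24.2 FPKM in the libraries labelled Sema6D-/-, against 33.4 and 30.3 FPKM in those labelled wild type (log2 difference -0.40 ± 0.067 (SE), adjusted p = 0.0244, limma). By limma 0 were higher, and 1 was at an unadjusted p under 0.05. Stat5a and Stat5b had differences of -0.23 and 0.04 and Il3ra, the IL-3 alpha chain gene, of 0.17, none of which passed. Il5ra was listed at 0 in all libraries. Jak2 passed in 7 of 13 alternatives and lost its call without wild type replicate 1 (0.0738), Sema6D-/- replicate 1 (0.173) or Sema6D-/- replicate 2 (0.127).

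Among 9 tested genes known as STAT5 or feedback targets, 2 were lower, where 4.91% of all tested genes were lower. By limma 0 were higher, and 1 was at an unadjusted p under 0.05. Cish, a feedback inhibitor gene that STAT5 induces, was at 10.1 and 11.5 FPKM in the libraries labelled Sema6D-/-, against 15.5 and 14.5 FPKM in those labelled wild type (adjusted p = 0.0342, limma). Ccnd2, the gene of cyclin D2, was at 1.23 and 1.13 FPKM, against 3.06 and 2.23 FPKM (adjusted p = 0.0463). Socs2 and Pim1 had differences of -0.08 and 0.36 and did not pass. Cish passed in 6 of 13 alternatives and in none of the fits that left out 1 library (adjusted p up to 0.192). Ccnd2 passed in 4 alternatives and lost its call without wild type replicate 1 (0.128) or either library labelled Sema6D-/- (0.189 at most). With a pseudocount of 5 the difference of Ccnd2 was -0.31, against -0.73. The medians were 0.03 for the JAK-STAT5 list and -0.09 for these targets.

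**Figure D5:**
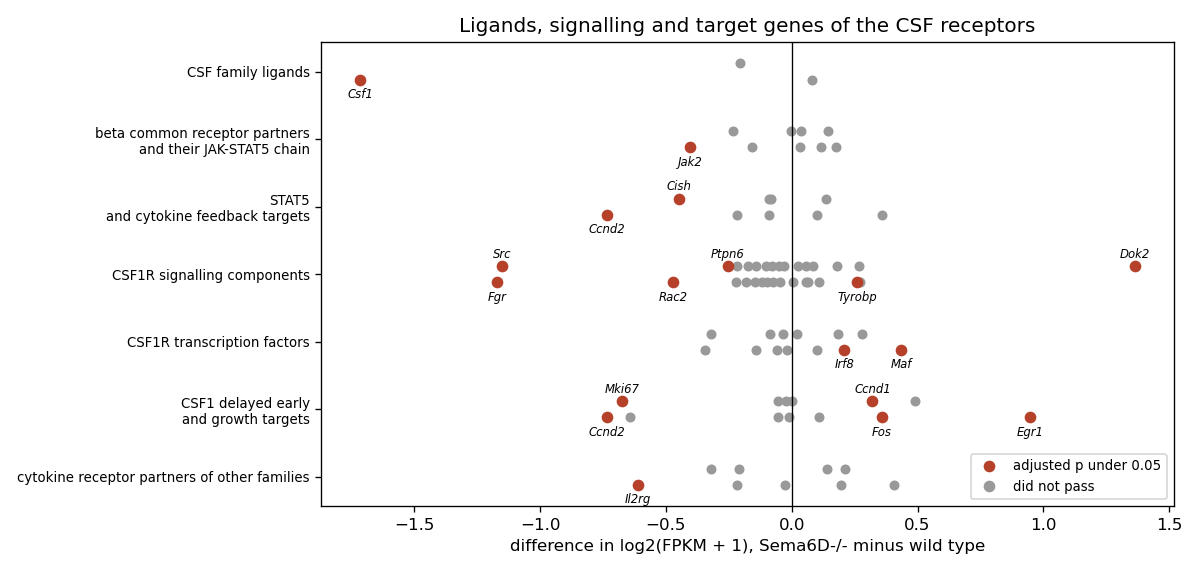
Difference in log2(FPKM + 1), Sema6D-/- minus wild type, of each tested gene of 7 lists around the CSF receptors, 1 point per gene, with genes past an adjusted p of 0.05 in red and named. Most points lie near 0, with Csf1, Src and Fgr at the lower end and Dok2 at the upper end.

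Transcription factors that act at Csf1r and other macrophage genes were mostly within the spread of all genes. Of 13, 2 were higher, where 4.8% of all tested genes were higher, with a median difference of -0.02. By limma 0 were lower, and 3 were at an unadjusted p under 0.05. Maf was at 16.1 and 14.8 FPKM in the libraries labelled Sema6D-/-, against 11.3 and 11.1 FPKM in those labelled wild type (adjusted p = 0.0235, limma). Irf8 was at 77.3 and 77.2 FPKM, against 65.6 and 67.9 FPKM (adjusted p = 0.0496). They passed in 8 and 2 of 13 alternatives, and in none of the fits that left out 1 library (adjusted p up to 0.173 and 0.226). Cebpa and Runx1 did not pass, with differences of 0.18 and -0.06.

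Growth and early response genes that CSF1 is known to induce went both ways. Of 13, 3 were higher and 2 lower, with a median of -0.01. Over all tested genes 4.8% were higher and 4.91% lower. The early response genes Egr1 (3.07 and 4.30 FPKM against 1.40 and 1.41 FPKM) and Fos (46.9 and 49.8 FPKM against 36.0 and 39.1 FPKM) were higher in the libraries labelled Sema6D-/- than in those labelled wild type, as was Ccnd1, the gene of cyclin D1 (34.9 and 34.2 FPKM against 29.0 and 25.9 FPKM). Mki67, a marker of dividing cells, was lower (1.06 and 1.0 FPKM against 2.23 and 2.25 FPKM), as was Ccnd2. Egr1 and Mki67 did not pass when any 1 library was left out (adjusted p up to 0.0897 and 0.117, limma). Fos lost its call without wild type replicate 1 (0.0881) or either library labelled Sema6D-/- (0.166 at most), and Ccnd1 without wild type replicate 2 (0.122) or either library labelled Sema6D-/- (0.248 at most). With a pseudocount of 5 the difference was 0.44 against 0.95 for Egr1 and -0.26 against -0.68 for Mki67, which was at -1.05 with a pseudocount of 0.1.

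Receptor chains of other cytokine families were set beside the members. Of 12, 9 were tested and 1 was lower, where 4.91% of all tested genes were lower. The lower gene was Il2rg, the common gamma chain that IL-4 also uses. It was at 85.0 and 92.1 FPKM in the libraries labelled Sema6D-/-, against 141 and 130 FPKM in those labelled wild type (log2 difference -0.61 ± 0.064 (SE), adjusted p = 0.00722, limma), and it lost its call without Sema6D-/- replicate 1 (0.0675). By limma 0 were higher, and 2 were at an unadjusted p under 0.05. Il4ra had a difference of -0.03 and did not pass. The list's median was -0.03.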

How the data were processed

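The 4 files hold FPKM values per gene symbol, which the authors normalized between libraries with Cuffnorm 2.2.1, per the submitters' processing notes. Other entries there are SAMtools 0.1.19, Bowtie2 2.2.3, TopHat2 2.0.13 and the build mm10. RNA, isolated with a microRNA kit, was turned into strand-specific libraries (Agilent SureSelect), per the labels' protocols. The sources used here do not give the annotation or the treatment of multi-mapping reads.

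Of 23284 symbols, 25 had no value in any file. Gapdh was listed at 0 in 3 libraries, so a 0 may be a failed estimate. Groups follow the stated genotype. Differences (Sema6D-/- minus wild type) were tested on log2(FPKM + 1) in R 4.3.3 by limma 3.58.1 (two-sided, trended eBayes). The fit took the 10115 genes whose mean reached 1 FPKM, with Benjamini-Hochberg adjustment over all of them and a threshold of 0.05. This scale understates the change of low genes. Sema6d, Kit, Flt3, Il34, Pdgfra and Pdgfrb were tested in a fit without the filter. The fit was tested on simulated data. Separate mice or cultures are not stated for the 2 libraries of a label, so p-values measure the spread between these samples alone, which may be technical.

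Depth was estimated from the whole-fragment steps of FPKM values in genes with 1 GENCODE M21 transcript. Fragment numbers use the longest coding transcript and are upper estimates. Symbols were matched to RefSeq GRCm38.p6, the assembly that mm10 names. Ly6g was not found among the neutrophil markers. Csf2rb and Csf2rb2 coding sequences were aligned with Biopython 1.88.

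The members and lists were chosen with earlier results of these data known. Named genes were the members, Sema6d, the ligand list, up to 6 members of each other list past the threshold, the 3 genes nearest to each tested member, the neighbours of the members, and S100a8, S100a9 and Itgax. List members named without having passed were chosen after their values were seen. Alternatives were other pseudocounts, filters, scalings and variance settings, a replicate block, and leaving out each library.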

Additional observations from a re-analysis of the deposited data

How the results depend on the processing

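Over the 6 tested members and 13 alternatives, 77 of 78 differences kept their direction and their side of the threshold; the exception was Csf2ra after quantile normalization. Csf1, Csf2rb and Csf3r passed in every alternative, the 4 fits without 1 library included. Over all tested genes, 486 were higher and 497 lower under the label Sema6D-/-. Without a filter the counts were 256 and 248, with eBayes without trend 261 and 327, and leaving out 1 library gave 72 to 276 higher and 87 to 290 lower. The cause of these shifts was not tested, except that a fit without a library has fewer samples. With the replicate block by title number 300 genes were higher, and the 3 lower members stayed at 3. Deviations of same-numbered libraries had a correlation of -0.0183 over 10115 genes, and the libraries share only a number. Some differences that did not pass changed sign. With 1 library left out, Sema6d ranged from -0.204 to 0.0487, Pdgfrb from -0.338 to 0.101, Pan3 beside Flt3 from -0.112 to 0.0911 and Mrps15 from -0.0517 to 0.209. After quantile normalization Pan3 was at 0.00112, against -0.01. Depth limits Kit, Flt3 and Il34, which rest on at most about 5 fragments in any library.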

Other observations

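Itgax, a chain of an integrin that marks dendritic cells and some macrophages, was at 304 and 319.9 FPKM in the libraries labelled Sema6D-/-, against 402 and 407 FPKM in those labelled wild type (log2 difference -0.37, adjusted p = 0.011, limma). It lost its call without Sema6D-/- replicate 1 (0.0974) or 2 (0.0603). Of the markers fixed for other cells, the fibroblast and stromal list had a summed level of 10.7 to 13.7 FPKM under the label Sema6D-/-, against 11.1 to 16.2 FPKM under wild type. The lymphocyte list summed to 0.730 to 1.07 FPKM, against 0.323 to 0.412 FPKM, with none of its genes past the filter. The mast cell and basophil list summed to 44.6 to 44.7 FPKM, against 33.9 to 40.7 FPKM, and 1 of its 2 tested genes was higher (Mcpt8). The eosinophil list summed to 18.4 to 23.0 FPKM, against 15.6 to 17.8 FPKM. Of its 3 tested genes, 2 were higher (Prg2 and Ccr3) and 1 lower (Siglec5, now Siglecf). The progenitor list summed to 35.6 to 58.2 FPKM, against 227 to 232 FPKM. Its only tested member, Ly6a, was lower (log2 difference -2.36), and all its other members had a mean below 1 FPKM. The dendritic cell list summed to 345 to 366 FPKM, against 444 to 453 FPKM, and Itgax made up most of both. The median difference of the 3 tested dendritic cell genes was -0.005. The osteoclast list summed to 963 to 972 FPKM, against 814 to 851 FPKM. Of its 6 tested genes, though, 2 were lower (Dcstamp and Mmp9) and 1 higher (Atp6v0d2), with a median difference of -0.18. Over all tested genes 4.91% were lower and 4.8% higher. The part of these lists in the results was not tested.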
